A study of Danio rerio with 12 samples.

Results

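The injured ventricular apex of transgenic wild-type zebrafish (TG7) was compared with that of non-transgenic wild-type siblings (WT7) at 7 days post amputation (dpa), to describe what still separated the 2 wild-type lines after resection. The comparison contrasts 4 of the 12 RNA-seq libraries of the study, 2 for TG7 and 2 for WT7, chosen by their labels, and it takes in all genes. The model behind the main counts was fitted to all 12 libraries, which share its filter on low counts and its estimate of the spread. TG7 fish carried Tg(hsp70l:nkx2.5-EGFP), in which a heat-shock promoter drives a fusion of Nkx2.5 to EGFP, on a wild-type nkx2.5 background. WT7 fish carried no transgene. Both groups had been heat shocked as embryos at 21 somites and were raised to adulthood. The study reported that resection itself also activated the transgene for a short time. Its expression was back at the uninjured level well before 7 dpa. What part this early activation played in the differences at 7 dpa was not tested. Each library was made from a pool of 6 ventricular apices, so that the spread between libraries is a spread between pools and not between fish. The other 8 libraries came from the uninjured counterparts TG0 and WT0 and from mutant fish, nkx2.5-/- with the same transgene and rescued as embryos by the same heat shock, without injury (MT0) and at 7 dpa (MT7). The ages of the adult fish are not given per library.

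The zebrafish ventricle grows back after its apex is cut away. A clot first seals the wound, the epicardium and endocardium then become active over the whole heart, leucocytes enter, matrix is laid down, and cardiomyocytes near the wound lose part of their sarcomeres and divide. Nkx2.5 is a homeodomain transcription factor needed for formation of the heart tube and for the identity of its chambers. TG fish and non-transgenic siblings are both used as wild-type references for the mutant, which carries the transgene too, so a difference between them bears on which reference a mutant is set against.

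The files held read counts for 38049 genes, and the totals of the TG7 libraries were 16732382 and 24544150 reads, against 20589171 and 21652524 reads in WT7. The totals of all 12 libraries lay between 14234818 and 24544150 reads. Values below are CPM, the reads of a gene scaled to a common library size, after correction of library sizes by the trimmed mean of M values (TMM), and 19014 genes were counted highly enough to be tested. The biological coefficient of variation between the 2 pools of a group was 0.151 in TG7 and 0.125 in WT7, the smallest of the 6 groups, and 0.182 in TG0 and 0.369 in WT0. Differences over 2-fold between the pools of a group were counted among the 9074 tested genes whose log2 CPM averaged over 3. The WT0 pools stood apart from each other at 425 of these genes, against 53 between the TG7 pools and 62 between the WT7 pools. The gene that the transgene carries was not detectably different between the lines. nkx2.5 had 166 and 186 CPM in TG7, against 220 and 184 CPM in WT7 (log2 fold change -0.20, SE 0.20, edgeR adjusted p = 0.77), and the counts do not distinguish the native transcript from that of the transgene. The mutant pools also had nkx2.5 reads, at 205 and 311 CPM in MT7 and 450 and 345 CPM in MT0. hsp70l, the heat-inducible gene whose promoter drives the transgene, had 5.81 and 7.53 CPM in TG7 and 7.04 and 5.39 CPM in WT7. Cardiomyocyte genes were abundant. myl7, which encodes a myosin light chain, had 20546 and 22636 CPM in TG7 and 21570 and 19382 CPM in WT7. The ventricular myosin heavy chain gene vmhc had 817 and 1114 CPM in TG7 and 1228 and 1428 CPM in WT7. It was thus lower in both TG7 pools, without passing the test (log2 fold change -0.46, edgeR adjusted p = 0.50).

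In all, 216 genes were differentially expressed between TG7 and WT7 (DEGs: absolute log2 fold change over 0.5 and p under 0.05 after Benjamini-Hochberg adjustment, from the quasi-likelihood test of edgeR), which is 1.14% of the genes tested. Of these, 161 were higher in TG7 (0.847% of genes tested) and 55 were lower (0.289%). The differences were large: the median log2 fold change was 2.56 among the higher genes and -1.65 among the lower ones, and 141 and 42 of them differed by over 1 log2 unit. Across all tested genes the median absolute log2 fold change was 0.24. The calls were spread evenly over expression levels, at 1.102% of the 9074 genes whose log2 CPM averaged over 3 and 1.17% of the genes at or below it. Provisional symbols, which carry no assigned function, made up 46.8% of the DEGs and 30.1% of tested genes. At an unadjusted p under 0.05 there were 2436 genes, 12.8% of those tested.

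With 2 pools per group, the number of DEGs rested on each library. It was 46 without the first TG7 library, 12 without the second, 22 without the first WT7 library and 3 without the second. A model of only the 4 compared libraries called 1134 genes, of which 718 were higher in TG7 (4.05% of the genes it tested) and 416 lower (2.35%). None of the 216 genes changed direction in any of these fits. The genes sphkap, LOC100537074 and LOC103910458 were called in every fit. sphkap, which encodes a protein that anchors protein kinase A, had 26.1 and 23.6 CPM in TG7, against 4.81 and 4.197 CPM in WT7 (log2 fold change 2.47, SE 0.18, adjusted p = 0.00067). It was also higher in TG0, at 14.1 and 17.9 CPM against 4.75 and 3.73 CPM in WT0. The MT7 pools, nkx2.5-/- by genotype and with the transgene, had 23.7 and 24.4 CPM. LOC100537074 had 11.8 and 10.7 CPM in TG7, against 0.340 and 0.0884 CPM in WT7 (log2 fold change 5.71, SE 0.45).

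**Figure D1:**
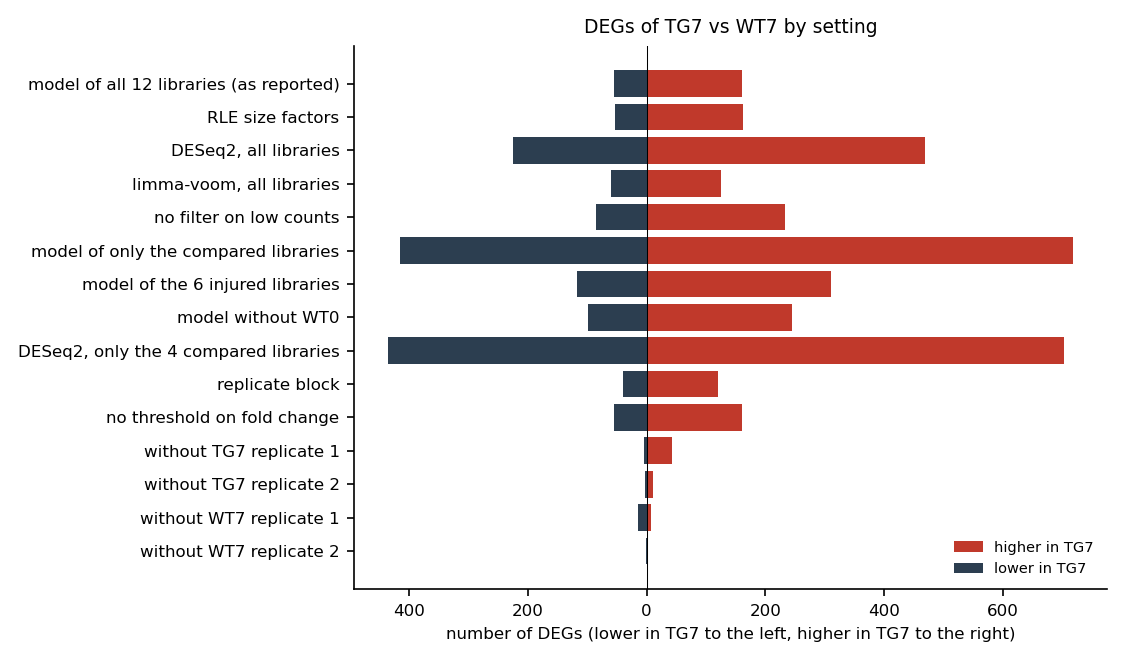
Number of DEGs between TG7 and WT7 under each model or left-out library, with genes lower in TG7 drawn to the left and genes higher in TG7 to the right of 0. The count with all 12 libraries in the model is 161 higher and 55 lower, and it falls to between 3 and 46 in all when 1 of the 4 compared libraries is left out.

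The largest differences among well-counted genes included muscle genes of the atrium. myh6 encodes the atrial myosin heavy chain, which marks the atrium in the adult zebrafish heart. It had 1045 and 998 CPM in TG7, against 2.72 and 14.05 CPM in WT7 (log2 fold change 6.92, SE 0.97, adjusted p = 0.013). Both TG7 pools lay far above both WT7 pools. In the uninjured apex myh6 had 438 and 864 CPM in TG0 and 85.6 and 348 CPM in WT0, a difference that did not pass the test (log2 fold change 1.59, adjusted p = 0.15). The contrast between the lines differed between the injured and uninjured apex (interaction log2 fold change 5.33, SE 1.13, adjusted p = 0.038), and WT7 had the lowest myh6 of the 6 groups, with 2595 and 1133 CPM in MT7. tnnc1b, which encodes a troponin C, followed the same order of groups, with 294 and 364 CPM in TG7, 2.86 and 7.11 CPM in WT7, 90.01 and 251 CPM in TG0 and 10.4 and 60.6 CPM in WT0. Its log2 fold change at 7 dpa was 6.03 (SE 1.002, adjusted p = 0.024). smtnl1, a smoothelin-like gene on the list of atrial markers, had 67.7 and 73.3 CPM in TG7, against 26.6 and 36.4 CPM in WT7 (log2 fold change 1.16, SE 0.22, adjusted p = 0.039). Unlike myh6, it differed by more without injury, at 103 and 163 CPM in TG0 and 9.90 and 11.6 CPM in WT0 (log2 fold change 3.63). Its interaction log2 fold change was -2.46 (SE 0.32, adjusted p = 0.0081).

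Of the 5 atrial markers, 2 were DEGs (myh6 and smtnl1), both higher in TG7, as were 0.847% of all tested genes. In both TG7 pools 4 markers were higher than in both WT7 pools (27.0% of all tested genes were). The other, tbx5a, was lower in both TG7 pools (27.2% were). The median log2 fold change was 1.16. nr2f1a, a transcription factor of atrial cardiomyocytes, had 31.0 and 30.9 CPM in TG7 and 7.72 and 9.81 CPM in WT7 without passing the test (adjusted p = 0.25). The model of the 4 compared libraries did call nr2f1a higher. It called 3 of the 5 markers higher and 0 lower, beside 4.05% and 2.35% of the genes it tested. shox2, a transcription factor of the pacemaker, is not on the list and was chosen after its values were seen. It had 2.39 and 2.74 CPM in TG7 and 0.0971 and 0.133 CPM in WT7 (adjusted p = 0.19). nppa, the atrial natriuretic peptide gene, which the zebrafish ventricle also expresses, had 3905 and 4177 CPM in TG7 and 3479 and 3436 CPM in WT7. In pieces of tissue, fewer cells of a type and less RNA per cell cannot be told apart, and the part that atrial tissue or any other cell type played in a difference was not tested. Neither atrial DEG was called when any 1 of the 4 libraries was left out: for myh6 the adjusted p then lay between 0.058 and 0.12, with log2 fold changes from 6.20 to 8.55.

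None of the 34 tested genes on the sarcomere list was a DEG, and the median log2 fold change was -0.13. That list leaves out the sarcomere genes myh6, tnnc1b and myom2, which were DEGs higher in TG7. Of the 34, 16 were lower in both TG7 pools than in both WT7 pools, beside 27.2% of all tested genes, and 5 were higher in both. The model of the 4 compared libraries called 4 of them lower (tnnc1a, ldb3b, smyd1b and casq2) and none higher, beside 2.35% and 4.05% of the genes it tested. Their summed level was 116671 and 131494 CPM in TG7 and 140496 and 129561 CPM in WT7, which overlapped. Among other muscle genes outside the lists, fhl2a, which encodes a LIM-domain protein of striated muscle, had 115 and 116 CPM in TG7, against 16.1 and 18.6 CPM in WT7 (log2 fold change 2.74, SE 0.31, adjusted p = 0.0058). alpk2, an alpha-kinase gene, had 13.6 and 15.3 CPM in TG7, against 0.291 and 0.309 CPM in WT7 (log2 fold change 5.56, SE 0.67, adjusted p = 0.0069). myom2, which encodes a protein of the M-band, had 29.8 and 29.2 CPM in TG7, against 9.85 and 10.2 CPM in WT7 (log2 fold change 1.56, SE 0.21, adjusted p = 0.012). All 3 were also higher in TG0 than in WT0.

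**Figure D2:**
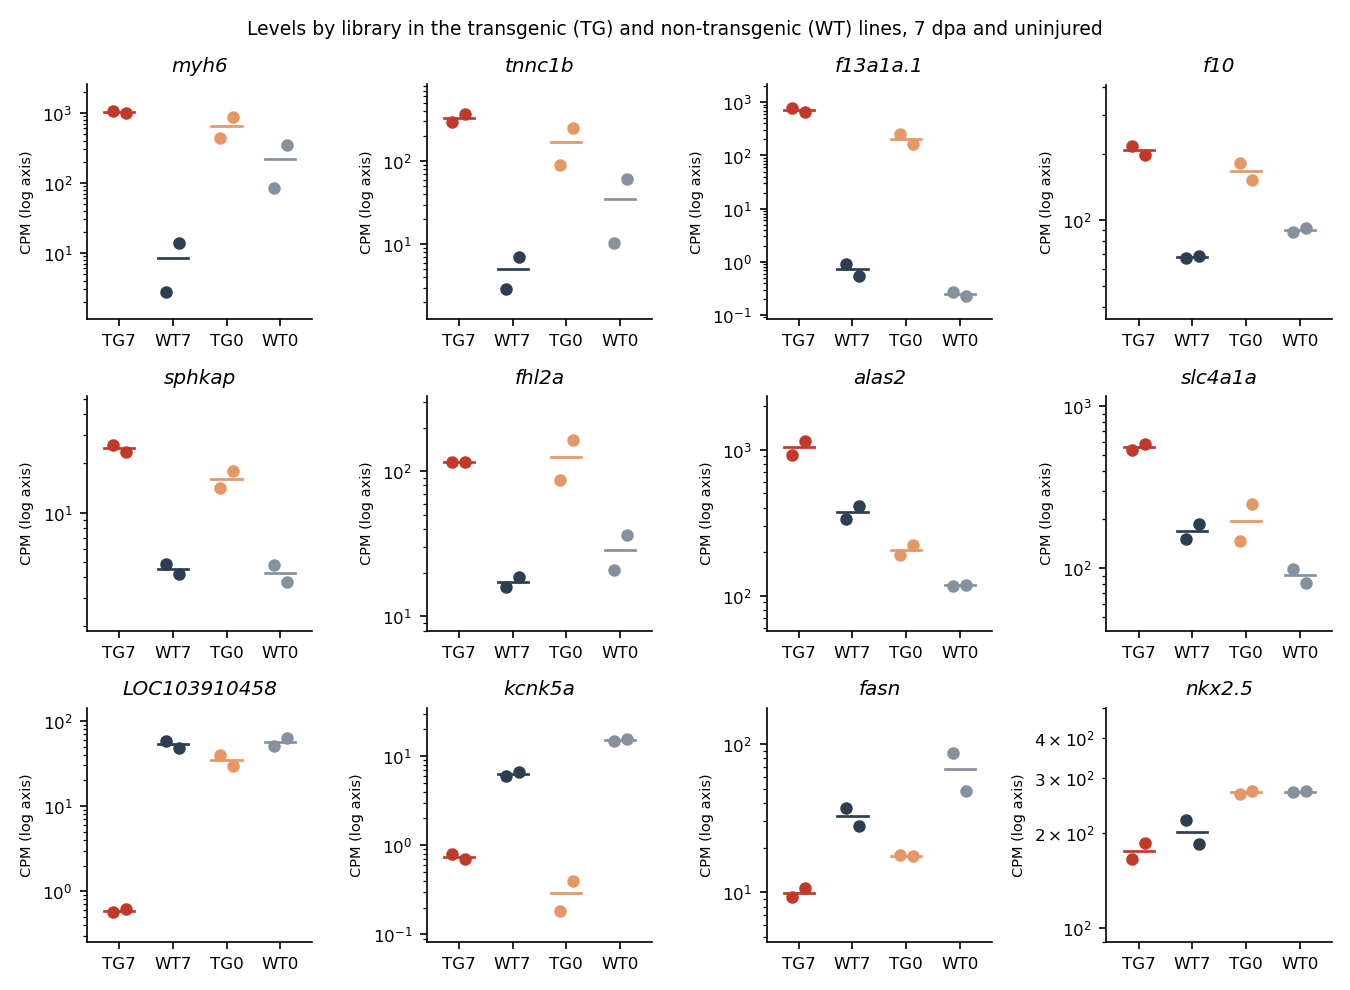
Level of 12 genes in each library of TG7, WT7, TG0 and WT0, in CPM on a log axis, with 1 point per library and a line at the group mean. myh6, tnnc1b and f13a1a.1 lie far higher in both TG7 libraries than in both WT7 libraries, LOC103910458 far lower, and nkx2.5 overlaps between the lines.

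Several genes of red blood cells were higher in TG7. Of 20 tested erythrocyte genes, 6 were DEGs, all higher in TG7 (0.847% of all tested genes were), and 18 had higher values in both TG7 pools than in both WT7 pools (27.0% of all tested genes). The median log2 fold change was 0.88, and the summed level was 8851 and 11368 CPM in TG7, against 4112 and 4540 CPM in WT7. alas2, which encodes the first enzyme of haem synthesis in erythroid cells, had 924 and 1151 CPM in TG7, against 333 and 411 CPM in WT7 (log2 fold change 1.48, SE 0.19, adjusted p = 0.0099). slc4a1a, the band 3 anion exchanger of the red cell membrane, had 540 and 583 CPM in TG7, against 151 and 189 CPM in WT7 (log2 fold change 1.72, SE 0.27, adjusted p = 0.019). cahz, the carbonic anhydrase of red cells, had 890 and 1201 CPM in TG7, against 400 and 474 CPM in WT7 (log2 fold change 1.26, SE 0.25, adjusted p = 0.046). The other 3 were hmbsb, an enzyme of haem synthesis, tmod4, a tropomodulin, and tspo, a mitochondrial membrane protein, with log2 fold changes of 0.89, 1.54 and 0.84.

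Further erythroid DEGs stood outside that list and were chosen after their values were seen. uros, another haem synthesis enzyme, had 49.1 and 58.1 CPM in TG7, against 28.3 and 29.2 CPM in WT7 (log2 fold change 0.90, SE 0.17, adjusted p = 0.041), and add2, an adducin of the membrane skeleton, had 30.8 and 43.8 CPM in TG7, against 13.9 and 15.3 CPM in WT7 (log2 fold change 1.35, SE 0.21, adjusted p = 0.018). The haemoglobin gene hbaa1 had 5273 and 7052 CPM in TG7 and 2345 and 2602 CPM in WT7 and did not pass the test (log2 fold change 1.32, adjusted p = 0.099). Reads of hbaa1 may be shared with near-identical globin copies. The model of the 4 compared libraries called 13 of the 20 genes, all higher in TG7 and hbaa1 among them, beside 4.05% of the genes it tested. Only alas2 was called without the first TG7 library, and none of the 20 was called without any of the other 3 libraries. In the uninjured apex the summed level was 3005 and 4554 CPM in TG0 and 2507 and 1883 CPM in WT0, with 9 of the 20 genes called higher in TG0 and 3 called lower, beside 11.1% and 11.3% of all tested genes. hmbsb was one of the genes that went the other way without injury, with 17.0 and 20.8 CPM in TG7, 9.56 and 10.8 CPM in WT7, 11.1 and 10.5 CPM in TG0 and 21.5 and 22.9 CPM in WT0.

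**Figure D3:**
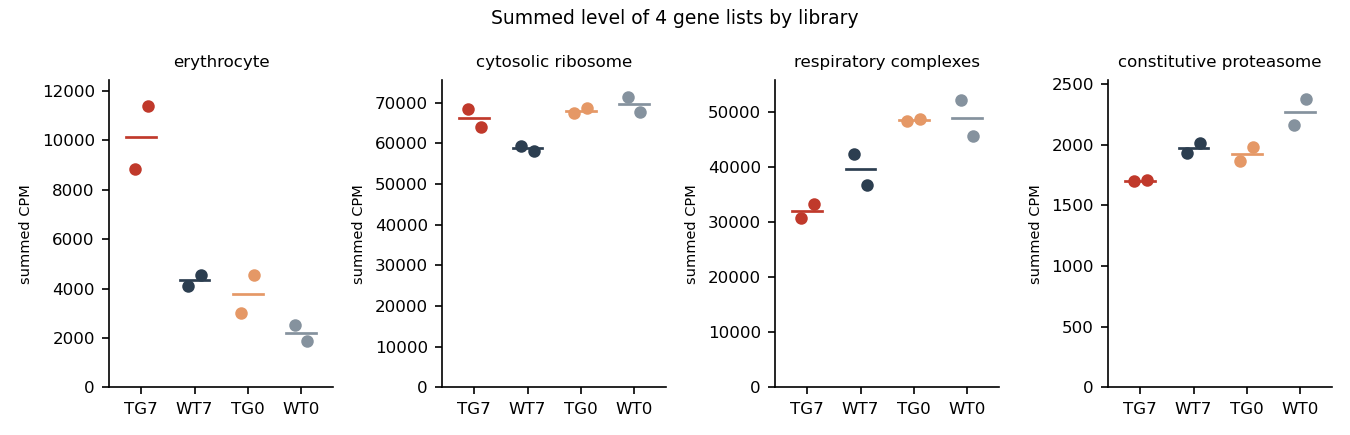
Summed CPM of the tested genes of 4 groups (erythrocyte, cytosolic ribosome, respiratory complexes and constitutive proteasome) in each library of TG7, WT7, TG0 and WT0, with 1 point per library. At 7 dpa the erythrocyte sum is 8851 and 11368 CPM in TG7 against 4112 and 4540 CPM in WT7, and the respiratory sum is lower in both TG7 libraries.

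The clotting factor genes f10 and f13a1a.1 were higher in TG7. f10 encodes coagulation factor X, the protease at which the clotting pathways meet. f10 had 216 and 198 CPM in TG7, against 67.2 and 68.2 CPM in WT7 (log2 fold change 1.61, SE 0.13, adjusted p = 0.0011), and 181 and 152 CPM in TG0, against 88.0 and 92.1 CPM in WT0. f13a1a.1 encodes an A chain of factor XIII, the transglutaminase that cross-links fibrin. It had 799 and 656 CPM in TG7, against 0.922 and 0.530 CPM in WT7 (log2 fold change 9.97, SE 1.53, adjusted p = 0.018), and 254 and 162 CPM in TG0, against 0.271 and 0.224 CPM in WT0. f13a1a.1 was nearly absent from all 4 non-transgenic pools and present in all 8 pools of the other groups, at 226 and 363 CPM in MT7 and 766 and 25.1 CPM in MT0. Its symbol belongs to a set of neighbouring copies, so the level of this copy alone is uncertain. The other 37 of 39 tested complement and coagulation genes were not DEGs, and the median of the list was 0.13. The 2 called were 5.13% of the list, beside 1.14% of all tested genes. Of the 39, 17 were higher in both TG7 pools and 6 lower in both, beside 27.0% and 27.2% of all tested genes. The model of the 4 compared libraries called 8 of 35 higher and 1 lower, beside 4.05% and 2.35% of the genes it tested.

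Of the genes of immune cells, macrophage and leukocyte markers (30 tested), neutrophil markers (12) and lymphocyte markers (17) held no DEG, with medians of -0.03, 0.29 and -0.05. Some receptor genes differed. cd28, the co-stimulatory receptor of T cells, chosen after its values were seen, had 7.52 and 12.3 CPM in TG7, against 1.46 and 1.19 CPM in WT7 (log2 fold change 2.91, SE 0.33, adjusted p = 0.0058). The list of immunoglobulin-like receptor families also held the MHC class II gene mhc2dab. Of its 15 tested genes, dicp3.3 and mhc2dab were DEGs (13.3%, beside 1.14% of all tested genes). Of the 15, 8 were higher in both TG7 pools and 2 lower in both (27.0% and 27.2% of all tested genes). The model of the 4 compared libraries called 5 of 15 higher and 0 lower, beside 4.05% and 2.35% of the genes it tested. dicp3.3, of a diverse family of immunoglobulin-like receptors, had 5.52 and 5.32 CPM in TG7, against 0.583 and 1.19 CPM in WT7 (log2 fold change 2.59, SE 0.45, adjusted p = 0.027). mhc2dab, an MHC class II gene, had 41 and 292 reads in TG7, against 1 and 0 reads in WT7, a ratio of 343 with a 95% counting interval from 61.1 to 13577. It was present in TG0, at 22.4 and 13.98 CPM, and had 0 reads in all 4 mutant pools. mhc2dab was also the 1 DEG of 21 antigen presentation and immunoproteasome genes (4.76%, beside 1.14% of all tested genes). The median of that list was -0.06. Of the 21, 5 were higher in both TG7 pools and 6 lower in both, beside 27.0% and 27.2% of all tested genes. Genes of the MHC and of receptor families occur as similar copies, and their reads may be split among them. The 32 interferon response genes held no DEG and had a median of -0.43. Their sum was 623 and 607 CPM in TG7 and 681 and 1248 CPM in WT7, with the second WT7 pool high. Of the 32, 14 were lower in both TG7 pools than in both WT7 pools and 2 higher in both, beside 27.2% and 27.0% of all tested genes.

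None of 40 matrix and fibroblast genes was a DEG (median log2 fold change 0.15), and 21 of them were higher in both TG7 pools than in both WT7 pools, beside 27.0% of all tested genes. With the 4 compared libraries alone, 4 of the 40 were called higher and 2 lower, beside 4.05% and 2.35% of the genes tested there. postnb, the periostin gene of the wound, had 1565 and 1712 CPM in TG7 and 1039 and 1306 CPM in WT7 (log2 fold change 0.48, adjusted p = 0.42). col1a2, a chain of collagen type I, had 1355 and 1332 CPM in TG7 and 1236 and 1345 CPM in WT7, and fn1a, a fibronectin, had 860 and 659 CPM in TG7 and 610 and 746 CPM in WT7, so both overlapped. Outside the list, col8a1b, a chain of collagen type VIII, had 40.5 and 39.6 CPM in TG7, against 11.6 and 17.0 CPM in WT7 (log2 fold change 1.48, SE 0.23, adjusted p = 0.019). nid1a, a nidogen of the basement membrane, had 209 and 218 CPM in TG7, against 135 and 141 CPM in WT7 (log2 fold change 0.63, SE 0.12, adjusted p = 0.044). Of 13 epicardial genes 1 was a DEG, beside 1.14% of all tested genes. It was tcf21, a transcription factor of the epicardium, with 56.7 and 49.7 CPM in TG7, against 27.47 and 32.8 CPM in WT7 (log2 fold change 0.82, SE 0.14, adjusted p = 0.027). Of the 13, 9 were higher in both TG7 pools and 3 lower in both (27.0% and 27.2% of all tested genes), and the median was 0.30. The model of the 4 compared libraries called 4 of 12 epicardial genes higher and 1 lower, beside 4.05% and 2.35% of the genes it tested. None of 31 endothelial and endocardial genes passed, although 17 were higher in both TG7 pools (27.0% of all tested genes) and none was lower in both (27.2%). aqp1a.1, a water channel of vessels and red cells, had 65.2 and 66.6 CPM in TG7, against 23.9 and 25.1 CPM in WT7 (log2 fold change 1.43, SE 0.19, adjusted p = 0.011).

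Channel genes were not tested as a list, and those named here, chosen after their values were seen except kcnk5a, went in both directions, with kcnk5a and the connexin cx27.5 lower in TG7 and 3 subunit genes higher. scn1ba, a beta subunit of voltage-gated sodium channels, had 4.96 and 5.11 CPM in TG7, against 0.728 and 0.530 CPM in WT7 (log2 fold change 2.99, SE 0.28, adjusted p = 0.0037). scn4ab, a sodium channel alpha subunit, had 19.3 and 19.8 CPM in TG7, against 3.88 and 4.86 CPM in WT7 (log2 fold change 2.16, SE 0.34, adjusted p = 0.019). cacna1aa, a calcium channel subunit, had 64.2 and 48.7 CPM in TG7, against 12.2 and 23.2 CPM in WT7 (log2 fold change 1.67, SE 0.33, adjusted p = 0.048). scn1ba and cacna1aa were called higher in TG0 as well, and scn4ab was not, at 9.15 and 16.5 CPM in TG0 and 9.63 and 10.7 CPM in WT0. Signalling and metabolic genes followed. dagla, a diacylglycerol lipase, had 31.2 and 42.8 CPM in TG7, against 11.3 and 10.5 CPM in WT7 (log2 fold change 1.77, SE 0.19, adjusted p = 0.0053). Of 49 genes of TGF-beta and BMP signalling, 1 passed, beside 1.14% of all tested genes. It was the inhibitory Smad gene smad6a, with 32.5 and 39.0 CPM in TG7 and 20.7 and 17.5 CPM in WT7 (log2 fold change 0.90, SE 0.14, adjusted p = 0.019). Of the 49, 21 were higher in both TG7 pools and 9 lower in both, beside 27.0% and 27.2% of all tested genes. The model of the 4 compared libraries called 5 of 45 higher and 1 lower, beside 4.05% and 2.35% of the genes it tested. ctsba, the lysosomal protease cathepsin B, was the 1 DEG of 66 autophagy and lysosome genes (1.52%, beside 1.14% of all tested genes). It had 127 and 141 CPM in TG7, against 37.96 and 42.1 CPM in WT7 (log2 fold change 1.74, SE 0.21, adjusted p = 0.0072). cited2, a transcriptional co-regulator, had 24.5 and 24.3 CPM in TG7, against 11.6 and 11.7 CPM in WT7 (log2 fold change 1.07, SE 0.21, adjusted p = 0.041).

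Among genes lower in TG7, the smallest p belonged to LOC103910458, an uncharacterised gene. It had 0.569 and 0.613 CPM in TG7, against 58.2 and 48.7 CPM in WT7 (log2 fold change -6.47, SE 0.33, adjusted p = 4.6e-05). It was well expressed in both uninjured lines, at 39.8 and 29.5 CPM in TG0 and 51.1 and 63.1 CPM in WT0. Without injury it was also called lower in TG0, by less (log2 fold change -0.72, edgeR adjusted p = 0.046). The contrast between the lines differed with injury (interaction log2 fold change -5.76, SE 0.40, adjusted p = 0.00049). In MT7 it had 0.787 and 0.764 CPM, and in MT0 3.67 and 6.51 CPM. zgc:92184, also of unassigned function, had 0.399 and 0.327 CPM in TG7, against 29.5 and 34.9 CPM in WT7 (log2 fold change -6.46, SE 1.28, adjusted p = 0.047). The TG0 pools of zgc:92184 were split, at 0.488 and 23.2 CPM, beside 44.3 and 41.5 CPM in WT0. kcnk5a, a potassium channel of the two-pore-domain class, had 0.797 and 0.695 CPM in TG7, against 5.97 and 6.63 CPM in WT7 (log2 fold change -3.07, SE 0.31, adjusted p = 0.0045), and 0.183 and 0.402 CPM in TG0, against 14.6 and 15.6 CPM in WT0.

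The named genes of metabolism and survival that were lower in TG7 differed by less. fasn, fatty acid synthase, had 9.23 and 10.6 CPM in TG7, against 37.0 and 27.7 CPM in WT7 (log2 fold change -1.70, SE 0.30, adjusted p = 0.027), and it was lower in TG0 too, at 17.7 and 17.5 CPM against 87.4 and 48.4 CPM in WT0. The other 38 tested genes of sterol and lipid synthesis were not DEGs. rbp2a, a cellular retinol-binding protein, had 20.96 and 27.6 CPM in TG7, against 161 and 112 CPM in WT7 (log2 fold change -2.48, SE 0.40, adjusted p = 0.022). bcl2b, of the family of genes that restrain apoptosis, had 0.683 and 1.15 CPM in TG7, against 6.84 and 4.46 CPM in WT7 (log2 fold change -2.60, SE 0.45, adjusted p = 0.027). ndrg3a had 50.3 and 76.4 CPM in TG7, against 251 and 234 CPM in WT7 (log2 fold change -1.93, SE 0.38, adjusted p = 0.044).

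Nuclear genes formed part of the same set. supt16h, a subunit of the histone chaperone FACT, had 64.8 and 60.7 CPM in TG7, against 118 and 121 CPM in WT7 (log2 fold change -0.93, SE 0.11, adjusted p = 0.0072). The zinc finger genes znf326, at 26.6 and 27.9 CPM in TG7 against 53.2 and 57.5 CPM in WT7, and znf438, at 4.21 and 6.42 CPM in TG7 against 23.2 and 20.3 CPM in WT7, had log2 fold changes of -1.02 and -2.02. cdkn1a, which encodes the cell cycle inhibitor p21, had 16.2 and 18.4 CPM in TG7, against 25.2 and 31.5 CPM in WT7 (log2 fold change -0.71, SE 0.14, adjusted p = 0.043). None of 96 cell cycle genes was a DEG (median log2 fold change 0.17), and ect2, a gene of cytokinesis, had 6.15 and 4.99 CPM in TG7 and 5.44 and 5.83 CPM in WT7. dnaja2l was the only DEG of 34 heat-shock and chaperone genes, beside 1.14% of all tested genes. It had 44.5 and 45.6 CPM in TG7 against 73.1 and 67.2 CPM in WT7 (log2 fold change -0.64). In the uninjured apex 21 of those 34 genes were called lower in TG0 than in WT0, as were 11.3% of all tested genes.

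Broad sets of housekeeping genes were shifted by small amounts that rarely passed the test for single genes. Of 86 genes of the respiratory complexes, 68 had lower values in both TG7 pools than in both WT7 pools, beside 27.2% of all tested genes, and 1 was higher in both. Their median log2 fold change was -0.25, and none was a DEG. The sum was 30860 and 33369 CPM in TG7, against 42447 and 36828 CPM in WT7. With the 4 compared libraries alone, 5 of the 86 were called lower and 0 higher, beside 2.35% and 4.05% of the genes tested there. Mitochondrial ribosome genes had a median of -0.23, with 50 of 69 lower in both TG7 pools, and genes of mitochondrial organization had a median of -0.24, with 56 of 86 lower in both. Constitutive proteasome genes had a median of -0.19, with 30 of 38 lower in both TG7 pools, and their sum was 1696 and 1707 CPM in TG7, against 1934 and 2016 CPM in WT7. The 1 DEG among them was psmd8, a regulatory subunit, with 50.6 and 47.7 CPM in TG7 and 68.8 and 73.7 CPM in WT7 (log2 fold change -0.54, SE 0.10, adjusted p = 0.043). psmb3 and psmd7, other subunits, had log2 fold changes of -0.10 and -0.22 without passing. Cytosolic ribosome genes lay on the other side, with a median of 0.16 and 62 of 86 higher in both TG7 pools, beside 27.0% of all tested genes. Their sum was 68449 and 64136 CPM in TG7 against 59427 and 58112 CPM in WT7. Members of such sets are co-regulated, so their number is not a number of independent measurements. nsa2, of ribosome biogenesis, was the 1 DEG of 104 genes of that process, with 380 and 445 CPM in TG7, against 166 and 141 CPM in WT7 (log2 fold change 1.42, SE 0.17, adjusted p = 0.0069).

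**Figure D4:**
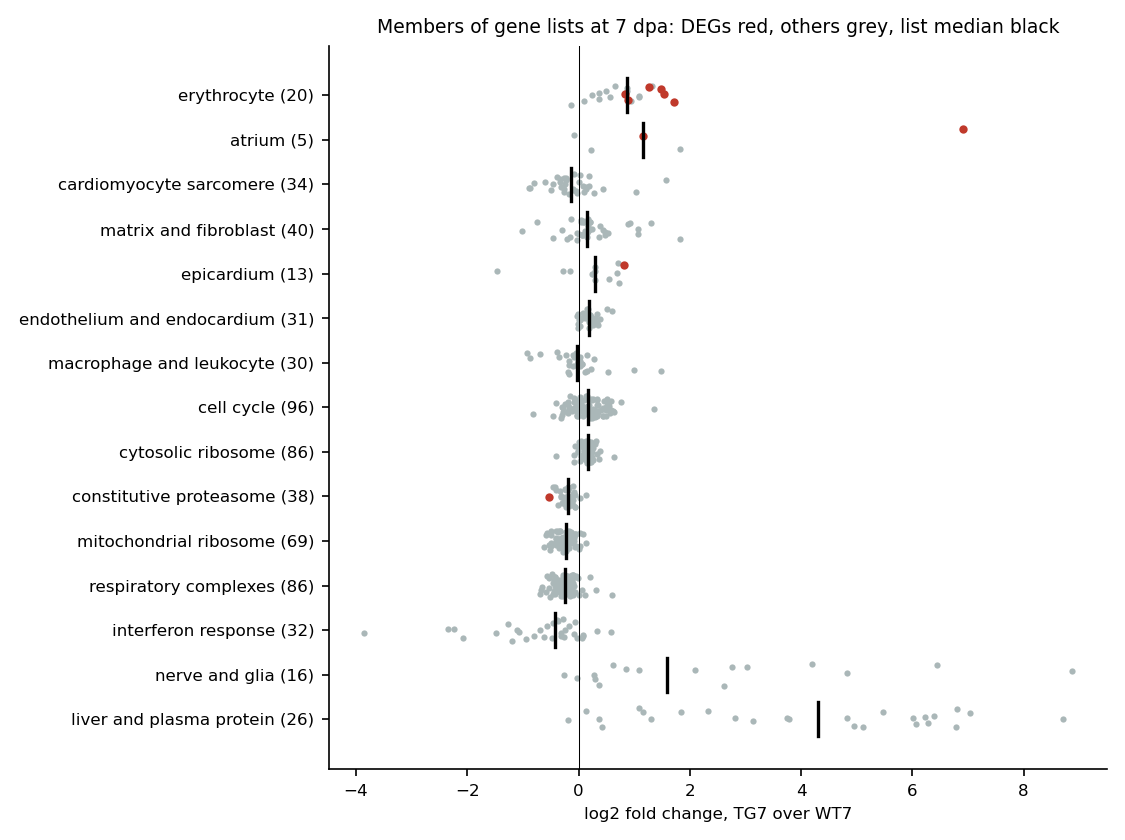
Log2 fold change of TG7 over WT7 for every tested member of 15 gene lists, with DEGs in red, other members in grey and the list median as a black mark. Erythrocyte genes lie to the right of 0 with 6 DEGs, the respiratory, mitochondrial ribosome and proteasome genes lie slightly to the left, and the liver and nerve lists reach far to the right without a DEG.

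Of the 44 lists, 16 held at least 1 DEG, and 22 of the 216 DEGs were in any list. Of all tested genes 1.14% were DEGs, the share beside which each count of called members stands. Glycolysis (44 tested, median -0.07), fatty acid oxidation and the TCA cycle (43, -0.23), circadian clock genes (44, 0.09), immediate early genes (32, -0.03), the integrated stress response (30, -0.14), and Notch, Wnt and growth factor signalling (77, 0.09) held none. The finTRIM family held 1, ftr51, with 6.49 and 4.83 CPM in TG7 and 15.5 and 17.4 CPM in WT7 (log2 fold change -1.54, SE 0.23, adjusted p = 0.017). Of 270 solute carriers 2 were DEGs (0.741%, below the share of all tested genes), slc4a1a and the monocarboxylate transporter slc16a8. The latter had 3.93 and 5.69 CPM in TG7 and 0.388 and 0.398 CPM in WT7.

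Some genes were counted in one line and nearly absent from the other. At 30 or more reads in both pools of one line and at most 3 reads in each pool of the other, 38 genes were on in TG7 and off in WT7 (0.0999% of the genes in the files), and 8 were on in WT7 and off in TG7 (0.0210%). Of the 38, 20 were DEGs, and of the 8, 1 was, the connexin gene cx27.5, with 2 and 3 reads in TG7, against 39 and 37 reads in WT7. In the mutant at 7 dpa, 30 of the 38 genes had at least 10 reads in both pools, as did 99.5% of all genes with 30 or more reads in both TG7 pools. Of the 8, 7 had at most 3 reads in both MT7 pools, as did 0.168% of all genes with 30 or more reads in both WT7 pools. The most highly counted of the 38 was LOC558353, with 592 and 728 reads in TG7, against 3 and 0 reads in WT7, a ratio of 453 (95% counting interval 155 to 2199). LOC101883120 had 544 and 167 reads in TG7, against 2 and 0 reads in WT7, a ratio of 366 (interval 101 to 3027). LOC799802 had 0 reads in both WT7 pools and was at least 44.5-fold higher in TG7, taking 3 reads per library as the floor. In the other direction, LOC100148920 had 0 reads in both TG7 pools and 242 and 269 reads in WT7, so that it was at least 80.5-fold lower in TG7 (adjusted p = 0.063), and LOC103911233, also at 0 in TG7, had 43 and 50 reads in WT7.

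Liver genes made up much of the named remainder of the 38. fabp10a, the fatty acid binding protein of hepatocytes, had 215 and 178 reads in TG7, against 3 and 3 reads in WT7, a ratio of 67.4 (95% counting interval 30.7 to 185) that did not pass the test (adjusted p = 0.13). The plasma protein genes apoa2 and hpx were on in TG7 and off in WT7 too, and hpx, haemopexin, had 76 and 89 reads in TG7 against none in WT7 (at least 28.6-fold higher, adjusted p = 0.20). Of 26 tested liver and plasma protein genes, 20 had higher values in both TG7 pools (27.0% of all tested genes), the median log2 fold change was 4.303, and none was a DEG. Their sum was 1001 and 1092 CPM in TG7 and 841 and 818 CPM in WT7. The second MT7 pool had a sum of 5398 CPM and the first 929 CPM, so that these genes also varied widely between pools of one group. In the uninjured apex the list had a median of -0.03. vtg1, a yolk protein gene made by the liver of females, had 2.28 and 107 CPM in TG7 and 0.291 and 0.663 CPM in WT7, and 27.9 and 1998 CPM in MT7. The study used females and males in equal numbers, and the sex of the fish in each pool is not given in the sources used here.

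Nerve genes were few but one-sided. Of 16 tested nerve and glia genes, 12 were higher in both TG7 pools (27.0% of all tested genes were) and none was lower in both (27.2%), the median log2 fold change was 1.59, and their sum was 47.6 and 40.9 CPM in TG7, against 26.9 and 24.4 CPM in WT7. None was a DEG. chata, the enzyme that makes acetylcholine, had 3.53 and 2.33 CPM in TG7 and no read in WT7 (at least 21.07-fold higher, adjusted p = 0.19). The model of the 4 compared libraries called 6 of the 15 nerve and glia genes it tested and 11 of 23 liver genes, all higher in TG7, beside 4.05% of the genes it tested.

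In the model of all 12 libraries the uninjured lines differed at many more genes. Between TG0 and WT0, 2118 genes were higher in TG0 (11.1%) and 2152 lower (11.3%). That order depended on the model. Models of only the compared libraries called 915 genes between TG0 and WT0, fewer than the 1134 between TG7 and WT7. Those models differ in the filter and library size factors as well as in the estimate of the spread. Which of these changed the order was not tested. The 2 contrasts have no library in common, but they come from 1 model with 1 estimate of the spread. Of the 216 DEGs at 7 dpa, 118 were called in the same direction without injury, 54.6% of the 7 dpa list and 2.76% of the uninjured list. These shares depended on the model too. Models of only the compared libraries shared 145 genes in direction, of 1134 called at 7 dpa and 915 without injury. The counts that follow are from the model of all 12 libraries. By direction, 95 were higher in both (59.0% of the higher genes at 7 dpa and 4.49% of those without injury) and 23 lower in both (41.8% and 1.07%). Of the 161 genes higher in TG7, 120 also had higher values in both TG0 pools than in both WT0 pools (74.5%, beside 31.0% of all tested genes), and of the 55 lower genes, 34 had lower values in both TG0 pools (61.8%, beside 30.1%). The 95 genes higher in both had a median log2 fold change of 2.28 at 7 dpa and 1.98 without injury. Over those 9074 genes of higher counts, which are not independent replicates, the fold changes of the line at 7 dpa and without injury had a Pearson r of 0.36. The uninjured count rests on WT0 pools that differed from each other, and it was 1669 without the first of them and 5047 without the second.

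The mutant, which shares the transgene with TG, was set beside WT0. None of these pools is in the TG7 and WT7 contrast, although all of them entered the model that chose the 216 DEGs (343 DEGs with WT0 left out of it). Of the 161 genes higher in TG7, 126 had higher values in both MT0 pools than in both WT0 pools (78.3%, beside 31.5% of all tested genes), and of the 55 lower genes, 41 had lower values in both MT0 pools (74.5%, beside 27.7%). The MT0 and TG0 comparisons have the WT0 pools in common. Among the 8 genes called at both times with the smallest p without injury, sphkap, kcnk5a, smtnl1 and myom2 have been described. LOC100331557 had 7.23 and 5.93 CPM in TG7 and 2.23 and 2.52 CPM in WT7, and si:ch73-217n20.1 had 21.6 and 21.3 CPM in TG7 and 9.61 and 9.28 CPM in WT7. si:ch73-217n20.1 kept close to the same levels without injury, at 21.8 and 23.4 CPM in TG0 and 8.75 and 7.38 CPM in WT0.

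**Figure D5:**
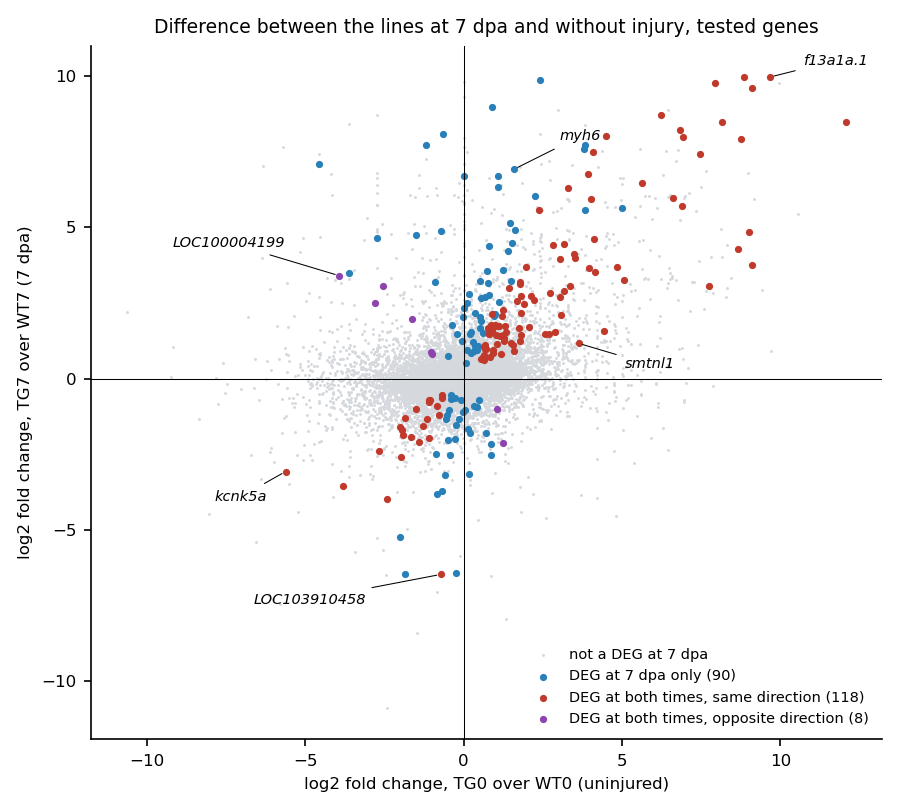
Log2 fold change of TG7 over WT7 (vertical axis) against that of TG0 over WT0 (horizontal axis) for all tested genes (grey), with the 216 DEGs at 7 dpa coloured by whether the gene was also called without injury. The 118 genes called in the same direction lie in the upper right and lower left, the 90 called at 7 dpa alone lie on both sides of the vertical line at 0, and 8 were called in opposite directions.

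Whether the difference between the lines itself changed with injury was tested by the interaction, (TG7 minus WT7) minus (TG0 minus WT0). It called 693 genes (3.64%), of which 37 were among the 216 DEGs (17.1%). Only 6 of the 118 genes shared in direction were among them, and 23 of the 90 DEGs not called without injury. The remaining 67 of those 90 are not shown to differ between the injured and uninjured apex, and 65 of the 90 had the same sign in both. The 8 genes with opposite calls were 6 higher in TG7 and lower in TG0 and 2 lower in TG7 and higher in TG0. LOC100004199, uncharacterised, had 40.1 and 19.999 CPM in TG7 and 3.11 and 2.56 CPM in WT7, but 2.81 and 3.27 CPM in TG0 and 35.7 and 57.3 CPM in WT0 (interaction log2 fold change 7.33, adjusted p = 0.00057). LOC101886554 did the same at lower levels, with 2.68 and 3.19 CPM in TG7, 0.340 and 0.353 CPM in WT7, 1.89 and 0.955 CPM in TG0 and 7.39 and 9.02 CPM in WT0. znf326 was among the genes that went the other way, at 64.6 and 62.3 CPM in TG0 and 31.5 and 29.6 CPM in WT0 beside its lower level in TG7. zgc:194659 was higher in the transgenic line at both times and by less after injury, with 42.4 and 43.1 CPM in TG7 and 16.1 and 12.6 CPM in WT7, and 39.3 and 29.9 CPM in TG0 and 1.70 and 1.49 CPM in WT0. Leaving out 1 library took the interaction count to between 31 and 2684, the lowest without the first TG7 library and the highest without the second WT0 library.

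The matrix genes postnb and col1a2 showed a line difference without injury that was not detected after it. postnb had 61.0 and 61.6 CPM in TG0, against 8.95 and 12.8 CPM in WT0 (log2 fold change 2.495), and col1a2 had 252 and 231 CPM in TG0, against 112 and 113 CPM in WT0 (log2 fold change 1.104). The interaction was -2.01 for postnb and -1.05 for col1a2 (adjusted p = 0.018 and 0.031), so the contrast between the lines was smaller at 7 dpa for both. Of the 40 matrix and fibroblast genes, 12 were called higher in TG0 (11.1% of all tested genes were) and 1 lower (11.3%), and 6 were called in the interaction (3.64%).

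DEGs that lie next to each other in the genome were few. Of the DEGs, 180 could be placed among the 16467 tested genes with a position in RefSeq's GRCz12tu annotation, which was used for gene order alone since the counts were made on GRCz10. Of 135 higher DEGs placed, 7 had a directly neighbouring higher DEG (5.19%, beside 1.61% of all placed genes), and of 45 lower DEGs none had a lower one (0.540% of all placed genes). The 7 formed 3 runs: zgc:113298, zgc:172133 and LOC101883120; LOC799802 and si:ch211-214b16.3; LOC100334396 and LOC101886687. zgc:113298 had 2.904 and 2.33 CPM in TG7, against 0.146 and 0.0884 CPM in WT7 (log2 fold change 4.42, adjusted p = 0.018), and zgc:172133 had 2.16 and 0.818 CPM in TG7, against 0.0485 and 0 CPM in WT7. Neighbouring genes with provisional names can be copies of one another or parts of 1 transcript, and the reads they share were not examined.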

How the data were processed

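RNA was extracted from pooled ventricular apices, libraries were made with a TruSeq kit, and per the labels and methods the authors aligned reads with STAR to GRCz10 and counted them per gene with featureCounts. The deposited files hold whole-number counts per gene. Strand and multi-mapping settings are not given in the sources used here. The study's own tests used DESeq2. Groups came from the sample labels. Counts were tested in R 4.3.3 with edgeR 4.0.16 (TMM factors, filterByExpr with a minimum count of 10 and a total of 15, glmQLFit and glmQLFTest) in a model of all 12 libraries with 1 mean per group and Benjamini-Hochberg adjustment. The SE is the absolute log2 fold change over the square root of F. Alternatives were size factors by relative log expression, DESeq2 1.42.0, limma-voom (limma 3.58.1), no filter, models of fewer libraries, a replicate block, no fold threshold, an FDR of 0.5 and leaving out each library. The code was tested on simulated counts.

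Samples and gene lists were chosen with earlier results of these data known. Named genes are the 8 DEGs of smallest p and the 5 of largest change in each direction (mean log2 CPM of at least 1, no overlap), all DEGs of the lists, 10 preset genes, the 3 of smallest interaction p each way, the 8 called at both times with the smallest uninjured p, and the 5 most counted genes present in 1 line each way. A further 28 were chosen after their values were seen: uros, add2, hbaa1, scn4ab, scn1ba, cacna1aa, aqp1a.1, col8a1b, nid1a, cd28, LOC100537074, cyp2ad2, rbp2a, ndrg3a, nr2f1a, nppa, apoa2, hpx, vtg1, chata, shox2, cited2, cx27.5, aste1, LOC799802, zgc:172133, zgc:113298 and ankrd1a, as were tnnc1a, ldb3b, smyd1b and casq2. Counting intervals are exact binomial intervals at 95% and cover counting error alone, as do the floors of 3 reads per library, which equal 0.171 and 0.123 CPM in TG7 and 0.146 and 0.133 CPM in WT7. The replicates of a group differed by more than counting noise (chi-square p under 0.05 at 30.7% of genes in TG7 and 31.9% in WT7).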

Additional observations from a re-analysis of the deposited data

Results flagged for a closer look

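The contrast between the lines differed between the injured and uninjured apex for 693 genes by the interaction term (edgeR's quasi-likelihood test, Benjamini-Hochberg adjustment), and 20 of them are named genes. A positive interaction log2 fold change means that the signed TG minus WT value was higher at 7 dpa, not that the lines lay further apart. kcnk5a, for example, was lower in TG at both times and by less at 7 dpa (log2 fold change -3.07, against -5.62 without injury). It was 7.33 for LOC100004199, 6.28 for cyp2ad2, 5.595 for LOC101886554, 5.33 for myh6, 2.55 for kcnk5a, 1.93 for hmbsb and 1.23 for si:ch211-94l19.4. It was -7.38 for LOC794686, -5.76 for LOC103910458, -3.36 for LOC101887165, -2.86 for zgc:194659, -2.46 for smtnl1, -2.08 for znf326, -2.01 for postnb, -1.73 for LOC793004, -1.51 for znf438, -1.35 for supt16h, -1.34 for myom2, -1.20 for cdkn1a and -1.05 for col1a2. LOC794686 had 1 and 0 reads in TG7 and 46 and 77 reads in WT7, so its fitted value depends on the prior count. cyp2ad2 had 22.2 and 19.5 CPM in TG7, 0.631 and 0.884 CPM in WT7, 2.44 and 12.5 CPM in TG0 and 30.4 and 12.7 CPM in WT0.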

How the results depend on the processing

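None of the 216 DEGs changed sign under any alternative. Counts of DEGs between TG7 and WT7 (in all, higher, lower) were 694, 469 and 225 with DESeq2 on all libraries, 1134, 718 and 416 with edgeR and 1138, 703 and 435 with DESeq2 on the 4 compared libraries, 428, 311 and 117 with the 6 injured libraries, 343, 245 and 98 without WT0, and 2466, 1470 and 996 at an FDR below 0.5; without a filter 85 genes were lower. Size factors by relative log expression gave 217 and voom 185. For TG0 against WT0 the counts were 915, 501 and 414 on those 4 libraries and 8933, 4398 and 4535 at an FDR below 0.5. Interaction counts were 1711, 921 and 790 with DESeq2, 443 with voom (182 higher) and 7182, 3820 and 3362 at an FDR below 0.5. DEGs shared in direction between 7 dpa and the uninjured apex numbered 322 with DESeq2 and 145 with models of only the compared libraries. A limit of 10 reads gave 169 genes on in TG7 and 30 on in WT7.

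Leaving out 1 library gave 3 to 46 DEGs between TG7 and WT7 (2 to 42 higher, 1 to 15 lower), 1408 to 5047 between TG0 and WT0 (837 to 2309 higher, 554 to 2738 lower) and 31 to 2684 in the interaction (11 to 1557 higher, 20 to 1127 lower). A lone library was then assumed to vary like the other groups. Of 69 named DEGs, 24, 9, 8 and 3 stayed called without the first and second TG7 and the first and second WT7 library. With the replicate number as a block there were 161 DEGs, and the interaction gave 338 (151 higher, 187 lower). Same-numbered TG7 and WT7 libraries did not deviate together across genes (r = -0.04, 2 pairs). With 2 libraries per group this cannot show whether same-numbered libraries had more in common than a number. The cause of these shifts was not tested. Genes with few reads in both lines are limited by depth.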

Other observations

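In the injured apex ankrd1a, a stress-responsive gene of cardiomyocytes, had 9.68 and 8.42 CPM in TG7 and 22.1 and 25.1 CPM in WT7, and missed the threshold (log2 fold change -1.38, edgeR adjusted p = 0.099). aste1 had 36 and 64 reads in TG7 and 0 and 1 reads in WT7, a ratio of 103 (95% counting interval 18.1 to 4105).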
